A study of Mus musculus with 4 samples.

Results

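Mouse hepatic stellate cells given the cytokine IL17A together with medium from cultured adipose-derived stem cells were set against untreated cells. The comparison rests on 2 of the 4 arrays of the series, chosen by their titles, with 1 array a side. Both arrays measured total RNA of IMS/N cells, a line of stellate cells taken from normal 129/Sv mouse liver and immortalized with SV40 virus. The untreated culture received neither agent. The combined culture received recombinant murine IL17A and medium conditioned by stem cells (ADSCs) from the inguinal fat under the skin of C57BL/6J mice. The other 2 cultures, given IL17A alone or ADSC medium alone, are quoted only to place the combined array. The dose of IL17A, the share of conditioned medium and the times of exposure are not given in the sources used here. What the medium of the cultures without ADSC medium was is not given there either. All 4 groups are the same immortalized line, so none of them shows how stellate cells of a liver respond.

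Stellate cells store vitamin A in the space between hepatocytes and sinusoids, and in injured liver they become contractile, collagen-secreting myofibroblasts. IL-17A binds a receptor of the subunits IL-17RA and IL-17RC, whose adaptor Act1 (gene Traf3ip2) leads to NF-kB and C/EBP factors and to longer-lived mRNAs of cytokines and chemokines. Conditioned medium carries what the donor cells secreted, and it has also lost nutrients that those cells used. The combined array therefore describes the joint state under a cytokine and a complex medium.

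Each group had 1 array, so no difference below has a replicate check or a p-value, and "higher" and "lower" describe 2 arrays. Slide 1 carried the 2 cultures without ADSC medium and slide 2 the 2 with it, so slide and medium cannot be told apart in any value of the combined array against the untreated one. Levels are log2 processed signals, quantile normalized over the 4 arrays. A gene was counted as higher or lower when the difference was at least 2-fold and the brighter of the 2 values was well above background. Where the dimmer array was not above background, the fold is given as "at least", against the higher of the probe's own value and the dimmest value well above background on that array. Between 58.1% and 60.4% of the 43379 spots on an array were well above background. Probes spotted several times on each array showed how far noise between spots spreads a log2 difference, with an SD of 0.411 at levels under 5, 0.137 between 5 and 7 and 0.075 over 7. This technical SD holds no spread between cultures, and none between arrays that shifts all spots of a probe together.

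The labelled cell type was checked first. Of 10 stellate cell markers, 8 were measured, and the array levels were high for collagen I (Col1a1, 15.02 untreated and 13.95 combined), smooth muscle actin (Acta2, 13.40 and 13.24) and the PDGF receptor (Pdgfrb, 11.81 and 10.78). Desmin (Des) lay near background at 2.95 and 3.12, Reln and Hand2 were above background on no array, and Lrat, the acyltransferase that forms retinyl esters and defines quiescent stellate cells, was above background on the combined array only. No hepatocyte marker of 8 on the array was above background. Of the macrophage markers 2 of 9 were measured, with Cd68 at 5.82 and 6.41 and Csf1r at 3.15 and 4.29 (2.21-fold higher, but 0.54 by the mean of its RefSeq probes), while Ptprc and Adgre1 were not measured. Of the 9 liver endothelial markers 3 were measured, at levels of 3.31 to 4.28 on these 2 arrays, and of the 8 lymphocyte markers 2. Cholangiocyte markers had 5 of 7 measured, with a median level of 8.32 untreated and 7.14 combined. Among these were the osteopontin gene Spp1 (12.17 and 12.87), Sox9 (8.32 and 8.79) and the keratin gene Krt19 (9.38 and 7.14), the 1 member that was lower. Epcam and Cftr were above background on no array. Adipose and adipose stem cell markers had 5 of 9 measured and none past 2-fold, with differences from -0.62 (Cd34) to 0.33 (Fabp4). Their median level was 7.75 untreated and 7.98 combined, with Cd34 (14.25 and 13.63) and Ly6a (11.20 and 10.78) bright on both arrays. The other 4 were above background on no array.

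Among 16133 measured genes, 550 (3.41%) were at least 2-fold higher on the combined array and 691 (4.28%) at least 2-fold lower. These 2 shares are the background for every count of list members below. For 353 of the higher and 442 of the lower genes the probe was above background on both arrays. In the other 197 and 249 genes the dimmer side was at background, so their folds are bounds. Differences of at least 8-fold were found for 44 genes on the higher side and 40 on the lower. Most genes lay close together, with a median difference of 0.0308 over 14814 genes above background on both arrays and 5th and 95th percentiles of -0.79 and 0.73. A bright signal left fewer calls. Of 10085 genes with a level of at least 7 on the brighter array, 166 were higher and 215 lower, and of 7107 with at least 9, 76 were higher and 110 lower. With normexp background correction, which pulls dim signals together, 127 genes were higher and 172 lower, and 123 and 163 of these were among the genes counted here.

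**Figure D1:**
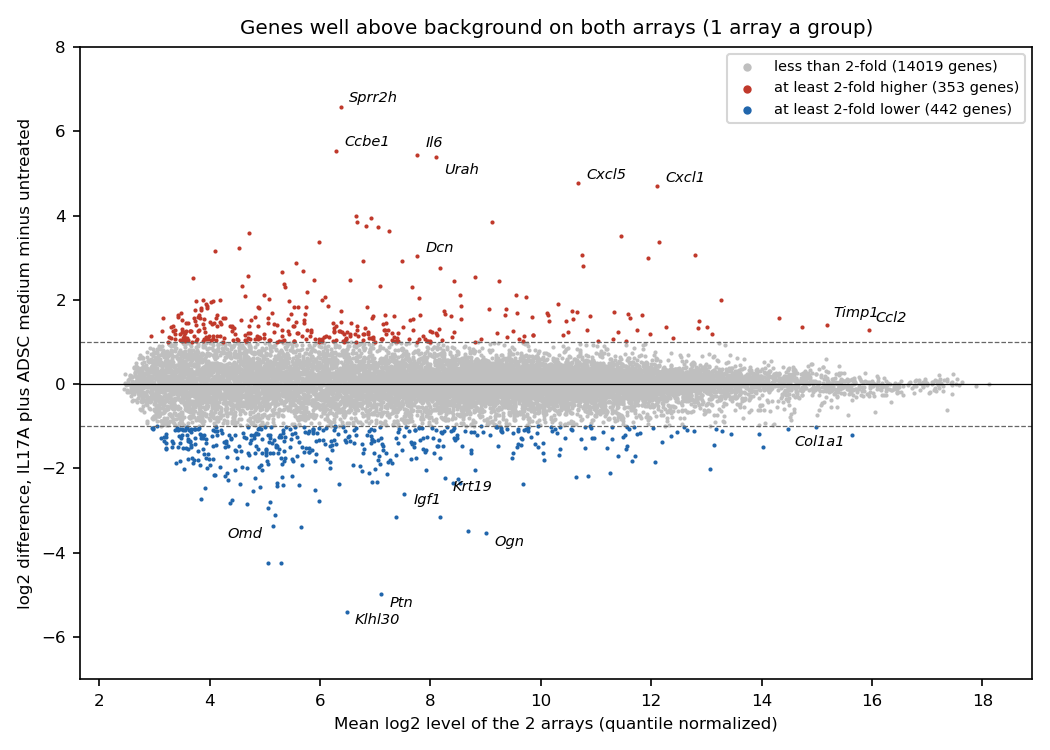
Difference between the combined and the untreated array (log2) against the mean log2 level of the 2 arrays, 1 point a gene, for genes well above background on both. Dashed lines mark 2-fold; 353 genes in red lie above and 442 in blue below, with Sprr2h (6.58) at the top and Klhl30 (-5.40) at the bottom.

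Genes known to respond to IL-17 were the list with the most members past the rule. Of 22 measured members of the list of IL-17 targets, 16 were higher and 0 lower, beside 3.41% higher over all genes, and the median difference was 2.12 against 0.0308 over all genes. The list was drawn up with earlier results of these arrays known, so its count is a description. Il6, the gene of the fever and acute-phase cytokine interleukin-6, had a log2 level of 5.04 on the untreated array, 11.80 under IL17A alone, 4.99 under medium alone and 10.47 under the combination, a 43.1-fold difference between combined and untreated. The arrays thus split by IL17A for Il6, with nearly equal levels on the 2 arrays without IL17A and the combined array below that of IL17A alone. The neutrophil-attracting chemokine gene Cxcl5 measured 8.28, 13.98, 7.14 and 13.06 in the same order, 27.4-fold higher with both agents. Cxcl1, a chemokine of the same receptor, measured 9.76, 15.02, 9.08 and 14.46, 26.1-fold higher. For both chemokines the array of medium alone was the lowest of the 4, and the combined array stood between it and IL17A alone. The complement component gene C3 measured 5.20, 10.65, 5.93 and 8.93, a 13.3-fold difference, or 2.22 on the log2 scale when averaged with its other RefSeq probe, which was at background.

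The acute-phase gene Saa3 was at 0.49 on the untreated array, 9.49 with IL17A, 0.34 with medium and 6.38 with both, and was at least 16.5-fold higher on the combined array. Lcn2, which encodes a lipocalin that binds bacterial iron carriers, measured 0.41, 8.00, 0.27 and 5.35, at least 8.03-fold higher. Both genes were above background only on the 2 arrays with IL17A. The nitric oxide synthase gene Nos2 had the same pattern at 0.48, 6.20, 0.40 and 4.23, at least 3.70-fold higher. Ptgs2, the inducible cyclooxygenase of prostaglandin synthesis, differed from these in that its combined level was the highest of the 4 arrays (8.49, 10.32, 9.35 and 10.62), 4.36-fold above untreated. Members of the list that did not pass included the transcription factor gene Cebpb (1.0, just short of the rule), the stromelysin gene Mmp3 (-0.68) and the ubiquitin-editing inhibitor gene Tnfaip3 (0.40). With normexp background correction 11 of the 16 higher members passed.

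**Figure D2:**
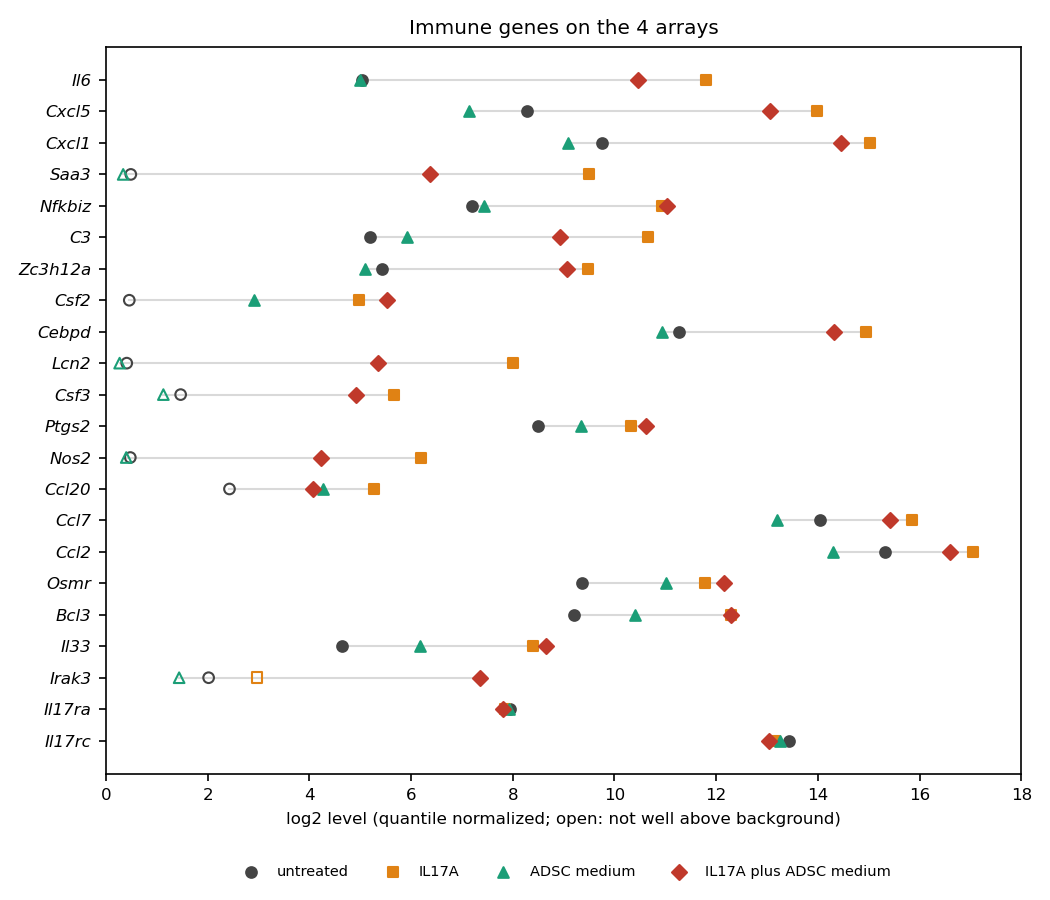
Log2 level on each of the 4 arrays for the 16 IL-17 target genes that were higher, ordered by difference, and for 6 further immune genes. Filled symbols are above background and open symbols are not; for Il6 the untreated and medium arrays coincide near 5 while IL17A (11.80) and the combination (10.47) lie far to the right.

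The stretches of 150 bases before the transcription start are shown for 6 of these genes because they carry the letters of 2 motifs linked to IL-17 signalling. They are RefSeq promoter records on GRCm38.p6, written 5′ to 3′ in the direction of the gene, with matches in capitals. Il6 lies at chr5:30012964-30013113 on the plus strand, Cxcl1 at chr5:90891095-90891244 on the plus strand, Ccl20 at chr1:83116616-83116765 on the plus strand, C3 at chr17:57228137-57228286 on the minus strand, Ptgs2 at chr1:150099881-150100030 on the plus strand and Saa3 at chr7:46715677-46715826 on the minus strand.
Il6: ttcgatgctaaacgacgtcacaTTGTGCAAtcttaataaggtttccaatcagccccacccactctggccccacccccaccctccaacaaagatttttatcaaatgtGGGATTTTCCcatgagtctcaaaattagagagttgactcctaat
Cxcl1: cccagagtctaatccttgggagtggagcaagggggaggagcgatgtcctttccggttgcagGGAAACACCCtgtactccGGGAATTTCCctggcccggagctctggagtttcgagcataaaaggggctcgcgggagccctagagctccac
Ccl20: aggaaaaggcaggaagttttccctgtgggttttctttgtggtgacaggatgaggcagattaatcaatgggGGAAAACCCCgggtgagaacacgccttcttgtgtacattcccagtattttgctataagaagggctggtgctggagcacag
C3: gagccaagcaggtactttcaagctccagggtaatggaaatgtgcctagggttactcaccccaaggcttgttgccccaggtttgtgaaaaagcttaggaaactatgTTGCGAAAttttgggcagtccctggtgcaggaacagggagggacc
Ptgs2: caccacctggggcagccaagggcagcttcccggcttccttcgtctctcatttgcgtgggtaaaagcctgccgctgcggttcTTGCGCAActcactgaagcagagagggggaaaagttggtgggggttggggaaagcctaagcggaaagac
Saa3: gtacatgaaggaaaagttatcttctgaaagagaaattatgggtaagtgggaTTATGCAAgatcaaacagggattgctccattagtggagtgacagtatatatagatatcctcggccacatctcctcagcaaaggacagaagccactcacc

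Capitals in Il6, Cxcl1 and Ccl20 mark the kB letters GGGNNTTTCC on either strand, and those in C3, Ptgs2 and Saa3, with the upstream match in Il6, mark the C/EBP letters TTGCNNAA. The motifs do not overlap in these stretches. Both were searched in records of 250 bases before and 50 after a start. Of the 16 higher IL-17 target genes 9 had a record, and 3 of the 9 (33.3%) held the kB letters against 1.63% of all 32851 records. The C/EBP letters were in 6 of the 9 (66.7%), namely C3, Csf2, Il6, Lcn2, Ptgs2 and Saa3, against 10.8% of all records. In Il6 the C/EBP match began 128 bases and the kB match 44 bases before the start, and in Cxcl1 there were 2 kB matches, 89 and 71 bases before it. The 9 genes were chosen as known IL-17 targets and then for being higher, so these shares only describe them. Shares for list members that did not pass were not computed, and no test was run. A match is a string of letters in this window and does not show that a factor was bound in these cells.

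Of 13 measured genes of the receptor and its adaptors, 1 was higher, and the median was 0.025. Il17ra measured 7.95, 7.85, 7.92 and 7.80, and Il17rc, the partner subunit, 13.43, 13.15, 13.26 and 13.04. Traf3ip2 was 0.71 higher without passing the rule. The 1 member that passed was Arid5a, an RNA-binding protein that stabilizes inflammatory mRNAs, at 6.69, 7.38, 7.77 and 7.91, 2.33-fold higher. Further regulators passed the rule. Nfkbiz, a nuclear partner of NF-kB needed for many IL-17 targets, measured 7.19, 10.93, 7.44 and 11.04 (14.4-fold). Zc3h12a, an RNase that degrades the mRNAs of Il6 and other targets, measured 5.42, 9.48, 5.10 and 9.06 (12.4-fold), and the C/EBP factor gene Cebpd 11.26, 14.94, 10.94 and 14.32 (8.32-fold).

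Within NF-kB, 4 regulators were higher and no subunit passed by its main probe. Of 19 measured genes these 4 were higher and 0 lower, with a median of 0.296: Nfkbiz, the co-regulator gene Bcl3 (9.21, 12.30, 10.41 and 12.29, 8.42-fold), the atypical inhibitor gene Nfkbid (2.85-fold, near background at 2.74 untreated) and the classical inhibitor gene Nfkbia (12.50, 13.68, 12.75 and 13.70, 2.29-fold). The subunit genes Rela, Relb and Nfkb2 differed by 0.26, 0.85 and 0.44, short of the rule. The probes of Nfkb1 gave different answers, at -0.22 for its brightest and between 1.07 and 1.28 for the other 3, none of them with a RefSeq accession. In the group of Il6-type cytokines, their receptors and Stat3 feedback, 6 of 14 measured genes were higher and 0 lower, with a median of 0.734. The receptor gene for oncostatin M, Osmr, measured 9.37, 11.79, 11.02 and 12.16, 6.95-fold higher, and was highest on the combined array. The feedback inhibitor gene Socs3 was 2.97-fold higher by its RefSeq probe (10.84, 12.55, 11.25 and 12.41), but a probe without such an accession gave -0.24. The cytokine gene Clcf1 was 2.05-fold higher, while the shared receptor gene Il6st (-0.10) and Il6ra (0.07) were not changed past the rule.

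Among CC chemokines, which attract monocytes and lymphocytes, 5 of 12 measured genes were higher and 1 lower. Ccl2, which recruits monocytes, was among the brightest at 15.31, 17.05, 14.29 and 16.59, 2.43-fold higher, and the related Ccl7 measured 14.04, 15.85, 13.19 and 15.41, 2.58-fold higher. As for Cxcl1 and Cxcl5, the medium array was the lowest for Ccl2 and Ccl7. Ccl5, a lymphocyte attractant, had another order, with 12.12, 13.29, 12.80 and 13.62, 2.82-fold higher and highest with both agents. The 1 lower member, Ccl9, fell short on both medium arrays at 8.71, 8.50, 7.65 and 7.10, 3.05-fold lower. Of 6 measured CXC chemokines 3 were higher and 1 lower, the latter Cxcl12, which holds stem cells and lymphocytes in place, at 13.71, 13.00, 12.99 and 12.64 (2.09-fold lower).

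The alarmin gene Il33, whose protein is released from damaged cells, measured 4.65, 8.39, 6.17 and 8.65, 16-fold higher with both agents. Il1rl1, which encodes the receptor for IL-33, went the other way at 10.88, 11.30, 9.31 and 9.72, 2.24-fold lower, and both of its low values were those of the medium arrays. Irak3, an inhibitor of Toll-like and IL-1 receptor signalling, was above background on the combined array only, at 7.35 against 2.02, 2.97 and 1.44, at least 32.1-fold higher. Its other RefSeq probe was above background on neither the untreated nor the combined array, and the mean of the 2 probes gave 2.53. Of 13 measured Toll-like receptors and adaptors, 1 was higher (Lbp, which hands bacterial lipopolysaccharide to its receptor, 2.76-fold) and 2 lower (Tlr4, the lipopolysaccharide receptor, and Tlr1). Tlr4 measured 7.88, 7.78, 6.90 and 6.41, 2.77-fold lower. The death receptor genes Fas (6.51, 9.31, 7.19 and 8.82, 4.97-fold) and Tnfrsf21 (3.94-fold) were the 2 of 11 measured TNF family genes that were higher. Normexp gave 0.48 for Tnfrsf21, 0.36 for Lbp and -0.1 for Tlr1, all short of the rule. Of 16 complement genes only C3 passed. Of 35 measured interferon response genes 0 were higher and 1 was lower, beside 3.41% and 4.28% over all genes. The lower one was Ifit2 (8.21, 7.83, 6.95 and 6.53).

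Some collagen genes, those of collagen I among them, were lower with both agents. Of 9 measured fibril-forming collagens 4 were lower and 0 higher, with a median of -0.774, beside 4.28% lower over all genes, and 2 lay above 0. Col1a1, an alpha chain of collagen I and the main product of scar-forming stellate cells, measured 15.02, 14.14, 14.36 and 13.95, 2.11-fold lower, and its other probes gave -1.32 and -1.26. Col1a2, the partner chain, measured 14.77, 13.87, 14.01 and 13.29, 2.81-fold lower. For both chains the untreated array was the highest and the combined array the lowest of the 4. Col3a1, the fibrillar collagen of soft tissue, measured 12.34, 12.69, 11.13 and 11.15, 2.28-fold lower, and here only the 2 medium arrays were low. Col2a1, the cartilage collagen, was 7.67-fold lower by its brighter probe (6.52, 7.04, 4.03 and 3.58), whereas its other RefSeq probe gave -0.22. Col5a1 was at -0.02 and Col5a2 at -0.77, short of the rule.

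Of 17 other measured collagens 3 were lower and 0 higher, and of the 15 above background on both arrays 5 lay above 0, with a median of -0.674. Col6a3, a chain of the beaded filaments around cells, measured 7.56, 7.12, 6.47 and 5.63 (3.80-fold lower; -1.12 by the mean of its RefSeq probes), and the basement membrane chain gene Col4a5 7.03, 6.48, 5.93 and 5.25 (3.44-fold lower). In both, the 4 arrays stood in the same order, with untreated highest, then IL17A, then medium, then both. The 4 fibril-forming and 2 of the 3 other collagens passed with normexp as well. Of 22 measured genes that fold, process and crosslink collagen 0 were higher and 0 lower, 13 lay below 0 and the median was -0.057. The collagen chaperone gene Serpinh1 differed by -0.25 and the lysyl oxidase gene Lox by 0.58, and its relatives Loxl2 and Loxl4 by -0.95 and -0.75. Whether this list differed from the chains was not tested.

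Small leucine-rich proteoglycans, which bind collagen fibrils and set their width, split. Of 7 measured 4 were lower and 1 higher, with a median of -1.61 over the 4 members above background on both arrays. Ogn (osteoglycin) measured 10.78, 8.47, 8.47 and 7.25, 11.6-fold lower, and Omd (osteomodulin) 6.83, 5.0, 4.44 and 3.47, 10.3-fold lower. For both, each single agent was already below untreated and the combined array was the lowest. Fmod and Prelp were lower too, by at least 2.42-fold and 2.97-fold, and they were not above background on the combined array. The mean of the RefSeq probes of Prelp gave -0.95, short of the rule. Dcn (decorin), which binds TGF-beta as well as collagen, was the exception at 6.25, 10.37, 6.19 and 9.28, 8.19-fold higher and high on the 2 arrays with IL17A only. With normexp 2 of the 4 lower members passed.

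**Figure D3:**
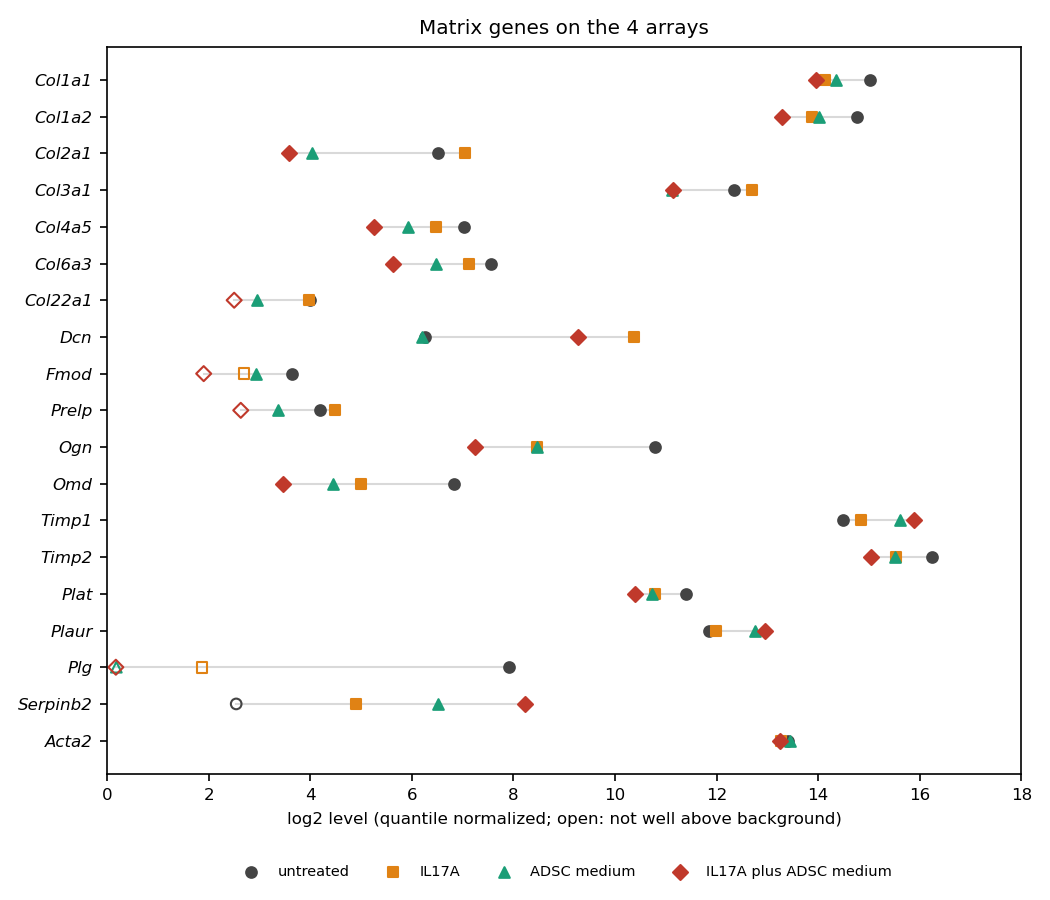
Log2 level on each of the 4 arrays for the collagens, small proteoglycans, protease inhibitors and plasminogen system genes that passed the 2-fold rule, with Acta2 for comparison. Red diamonds (both agents) lie left of the untreated circles for the collagens, Ogn and Omd, and right of them for Dcn, Timp1, Plaur and Serpinb2.

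Other matrix genes showed no common direction. The 20 measured matricellular genes had 2 higher and 1 lower, beside 3.41% and 4.28% over all genes, and with normexp none of them passed. Tnc, a matrix protein of wounds, measured 3.93, 5.50, 5.04 and 6.04, 4.31-fold higher, fibronectin (Fn1) differed by 0.62 and Sparc by -0.73. The calcium-binding gene Smoc2 was at 0.96, 0.26, 3.95 and 4.29, at least 3.85-fold higher, and above background on the medium arrays only, with 0.87 by the mean of its RefSeq probes. Of 23 laminins, nidogens and elastic fibre genes 2 were higher and 3 lower, among them Efemp1, a fibulin, at 13.00, 12.43, 11.96 and 11.15 (3.59-fold lower), the laminin chain gene Lamb3 (3.78-fold lower) and Ltbp2, which sits on elastic microfibrils, at 9.06, 9.82, 9.69 and 10.64 (3.0-fold higher). The collagen-binding integrin gene Itga11 was 3.21-fold lower (5.87 untreated and 4.19 combined) and the leukocyte integrin gene Itgb2 3.04-fold lower (5.82 and 4.21). They were the 2 of 15 integrin genes past the rule, and with normexp neither passed.

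No matrix metalloproteinase passed the rule, while several protease inhibitors did. Of 12 measured metalloproteinases 10 were above background on both arrays, with 4 above 0 and 6 below, among them Mmp2 at 0.03 and Mmp14 at -0.79. Mmp10 (1.03 untreated and 3.21 combined) and Mmp13 (0.89 and 3.10) were at background on the untreated array. Their bounds of at least 0.87 and 0.76 on the log2 scale fell short of the rule, so the size of their differences is not known. Of 8 measured ADAMTS proteases 2 were higher and 1 lower, the latter the aggrecan-cutting Adamts5 at 10.61, 10.36, 9.05 and 9.18 (2.69-fold lower). The metalloproteinase inhibitor gene Timp1 measured 14.48, 14.84, 15.61 and 15.88, 2.64-fold higher, and a further probe gave 1.74. Timp2, a second inhibitor, measured 16.24, 15.54, 15.52 and 15.04, 2.31-fold lower, so these relatives differed in direction. Serpinb2, an inhibitor of plasminogen activators, measured 2.54, 4.89, 6.52 and 8.22, at least 51.5-fold higher. A further probe gave 6.16 with no bound applied, as its untreated value of 1.71 was at background. Serpinb2 was above untreated with each agent and highest with both. The urokinase receptor gene Plaur was 2.14-fold higher (11.85, 11.98, 12.76 and 12.95), and tissue plasminogen activator (Plat) was 2.0-fold lower (11.39, 10.79, 10.73 and 10.39), which did not pass with 75th percentile or median scaling. Plg (plasminogen), a liver-made zymogen, was above background on the untreated array only, at 7.91 against 1.87, 0.18 and 0.17, at least 46.5-fold lower on the combined array and -1.68 by the mean of its 2 RefSeq probes.

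Of 23 measured genes that mark stellate activation 0 were higher and 2 lower, beside 3.41% and 4.28% over all genes. Of the 22 above background on both arrays 17 lay below 0 and 5 above, with a median of -0.145, Cald1 at -0.89 and Cnn2 at -0.79. Acta2 measured 13.40, 13.27, 13.45 and 13.24 by its main probe, and its 3 other RefSeq probes gave -1.40, -0.67 and -0.36. Tagln, a smooth muscle actin-binding protein, differed by -0.07 and vimentin (Vim) by -0.54. The 2 lower members were Actg2, a smooth muscle actin, at 11.31, 11.14, 10.49 and 10.29 (2.03-fold), and Pdgfrb at 11.81, 11.49, 10.55 and 10.78 (2.04-fold). Both sit at the edge of the rule, and with median scaling of the arrays neither passed. The genes of TGF-beta ligands, receptors and feedback had 0 of 24 higher and 2 lower, near the shares over all genes. Their median was -0.092, and with normexp neither of the 2 passed. Tgfb1 differed by 0.64, Tgfb2 was 2.79-fold lower (6.92, 6.27, 5.31 and 5.44) and the receptor gene Tgfbr2 differed by -0.50. The matrix growth factor Ccn2, a common readout of TGF-beta, was at 11.55, 10.29, 12.49 and 11.66, so that the combined array lay 0.11 from untreated while the single agents lay on either side.

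**Figure D4:**
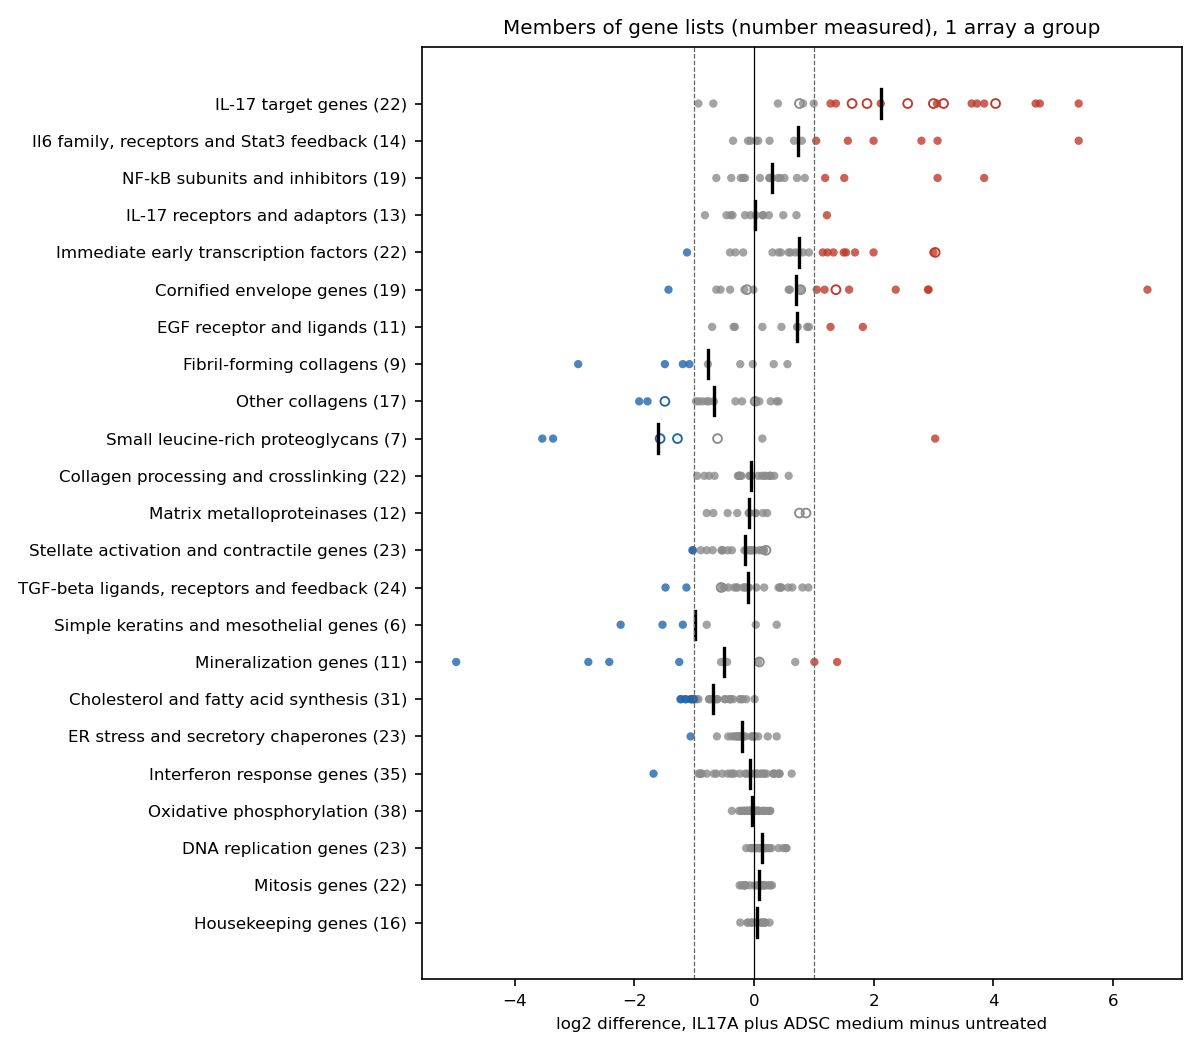
Difference between combined and untreated arrays (log2) for the measured members of 23 gene lists, 1 point a gene; black ticks are medians over members above background on both arrays, open symbols have a side at background and are bounds. IL-17 targets reach furthest to the right as a group (median 2.12), and housekeeping, mitosis and oxidative phosphorylation genes stay between the dashed 2-fold lines.

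Among growth factors, Vegfa, which drives growth of blood vessels, measured 10.08, 10.94, 10.73 and 11.69, 3.07-fold higher, and Vegfc, which drives lymphatic vessels, 10.74, 11.36, 11.73 and 12.41, 3.17-fold higher. Each agent alone was above untreated for both genes and the combination was highest. Ccbe1, a secreted protein that is needed to process VEGF-C, measured 3.53, 7.55, 6.77 and 9.07, 46.6-fold higher, and its 2 other probes gave 5.50 and 5.95. The 5.95 has no bound applied, as the untreated value of that probe, 1.28, was at background. The angiopoietins went the other way, with Angpt2 at 7.16, 6.38, 5.40 and 4.65 (5.73-fold lower) and Angpt1 at 5.89, 3.25, 1.83 and 1.93 (at least 11.5-fold lower). The other Angpt1 probe gave -1.88 with no bound applied, as its combined value of 1.76 was at background. The list of 14 measured angiogenic genes held 3 higher and 3 lower. Ptn (pleiotrophin), a heparin-binding growth factor of mesenchyme, measured 9.60, 8.09, 5.96 and 4.62, 31.6-fold lower, while its relative Mdk differed by -0.04.

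Igf1, a growth factor for muscle and liver mesenchyme, measured 8.82, 6.90, 7.26 and 6.21, 6.09-fold lower, and the insulin signalling adaptor gene Irs1 was 2.01-fold lower. Fgf7, a growth factor for epithelia, was 2.26-fold higher (9.27, 11.07, 8.50 and 10.45) and split by IL17A. Of 11 measured EGF receptor genes and ligands 2 were higher and 0 lower, with a median of 0.725. They were the ligand gene Ereg (4.62, 5.63, 5.66 and 6.44, 3.53-fold) and the receptor inhibitor gene Errfi1 (10.20, 11.01, 11.21 and 11.48, 2.43-fold). Hbegf missed the rule at 0.92 and Areg at 0.89. Among BMP genes, Id1, a helix-loop-helix inhibitor of differentiation, was 3.22-fold higher (9.28, 10.48, 10.57 and 10.96) and Id3 2.04-fold higher, while the ligand genes Bmp4 and Bmp6 were 2.11-fold and 2.90-fold lower (Bmp6 at -0.76 by the mean of its RefSeq probes). The Wnt list had 3 of 18 higher and 4 lower, with Wnt4 (3.54-fold lower), Wnt10a (2.86-fold lower) and Wnt6 (2.33-fold lower) low on the 2 arrays with IL17A. With normexp 0 of the 3 higher and 0 of the 4 lower members passed.

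Immediate early genes, which growth factors and stress switch on within minutes, were mostly above untreated. Of 22 measured 9 were higher and 1 lower, beside 3.41% and 4.28% over all genes, and the median was 0.748. Egr1, a zinc finger factor, measured 8.72, 7.94, 11.49 and 10.41, 3.23-fold higher. Egr2 measured 6.92, 6.77, 8.84 and 8.46 (2.92-fold), and Egr3 1.97, 2.38, 5.93 and 5.37 (at least 8.14-fold; 0.71 by the mean of its RefSeq probes). For these 3 genes the 2 medium arrays were high and the combined array was below that of medium alone. Their co-repressor gene Nab2 was 2.17-fold lower (9.18, 9.14, 8.37 and 8.06). Junb (12.27, 13.72, 13.64 and 14.27, 4.01-fold) and Ier3, a survival gene (10.44, 13.18, 11.29 and 13.43, 7.97-fold), were above untreated with each agent and highest with both. Myc, a growth regulator, was 2.35-fold higher at 10.78, 11.40, 11.80 and 12.02. Fos and Fosb were 2.51-fold and 2.83-fold higher at levels of 5.11 and 4.49. The feedback inhibitors of MAPK signalling had 1 of 19 higher and 2 lower, beside 3.41% and 4.28% over all genes. Spry1 was 3.39-fold lower (8.61, 7.13, 7.53 and 6.85) and Dusp14 2.61-fold lower, while Dusp6 and Spry2 differed by 0.83 and 0.85. With normexp 6 of the 9 higher immediate early genes passed.

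Of 31 measured genes of cholesterol and fatty acid synthesis 9 were lower and 0 higher, beside 4.28% lower over all genes, and 22 did not pass. A difference below 0 was seen for 30, with a median of -0.69 and a range of -1.23 to 0.01, and the fatty acid synthase gene Fasn was at -0.21. Fdps, which makes farnesyl diphosphate, measured 12.97, 12.96, 11.86 and 11.74, 2.35-fold lower, though a probe without a RefSeq accession gave -0.02. Insig1, a sterol sensor of the endoplasmic reticulum, measured 9.45, 8.95, 8.13 and 8.23 (2.32-fold), Lss, which closes the sterol rings, 10.07, 10.06, 9.0 and 8.91 (2.22-fold), and Idi1 12.55, 12.51, 11.52 and 11.51 (2.06-fold). The 2 medium arrays were low and the 2 others high for these genes, and the combined array lay close to medium alone. Slide moves with medium for every one of them. The synthase gene Hmgcs1 differed by -0.93 and the regulator gene Srebf2 by -0.13, both short of the rule. With 75th percentile or median scaling 7 of the 9 passed. Of 22 measured genes of the list with a promoter record, 1 (Hmgcs1) held the sterol element letters TCACCCCAC, which 0.551% of all records held.

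**Figure D5:**
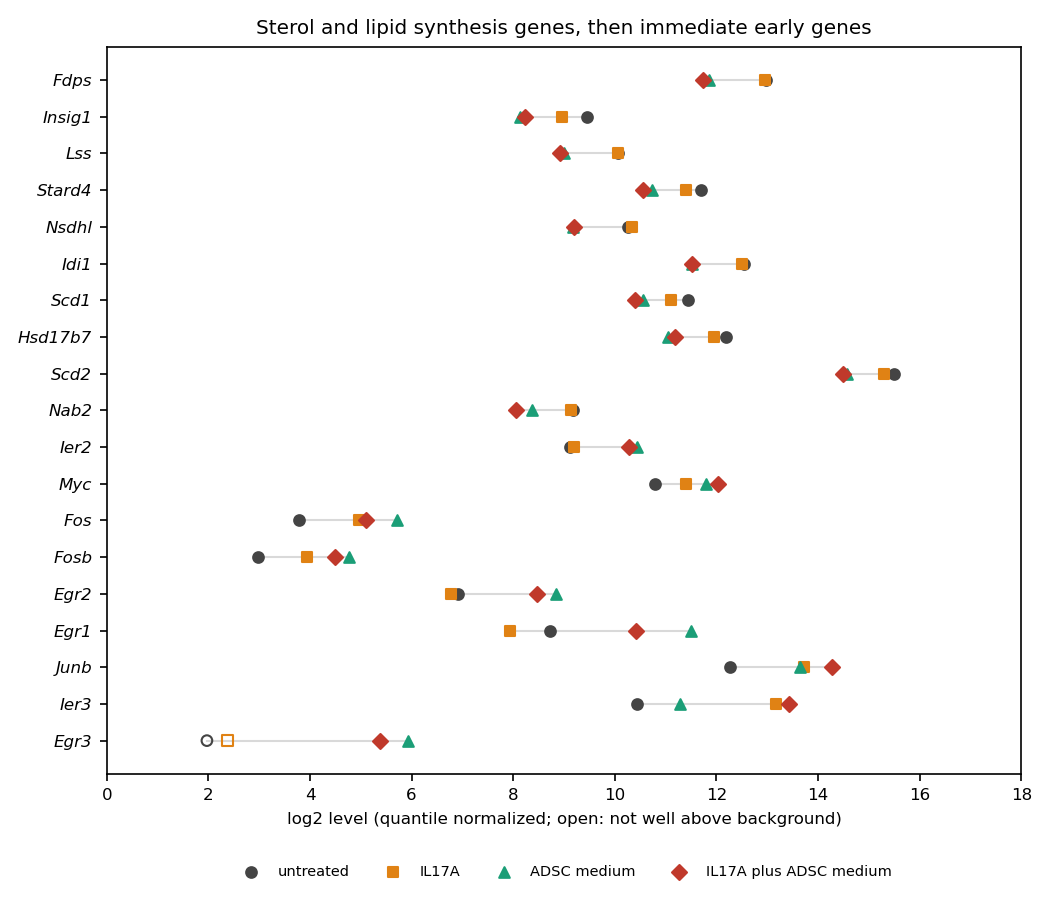
Log2 level on each of the 4 arrays for the 9 sterol and lipid synthesis genes that were lower (upper rows) and the 10 immediate early genes that passed the rule (lower rows). In the upper rows the 2 medium arrays (triangle and diamond) lie about a log2 unit left of the others; in the lower rows all but Nab2 have the diamond right of the untreated circle.

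Of 17 measured retinoid genes 3 were higher and 3 lower, beside 3.41% and 4.28% over all genes, and 11 did not pass. With normexp 1 of the 3 passed in each direction. Crabp2, a carrier of retinoic acid, measured 6.52, 5.41, 5.44 and 4.13, 5.23-fold lower, and Aldh1a1, which makes retinoic acid, was 3.08-fold lower at 5.91, 4.33, 5.69 and 4.29. The retinol dehydrogenase gene Rdh10 was 2.71-fold higher (6.43, 7.65, 6.60 and 7.87). Lrat was at 0.36, 0.40, 0.25 and 3.84, at least 2.83-fold higher, from 1 probe near background. It did not pass with normexp, and the mean of its RefSeq probes gave -0.14. Among lipid droplet genes Plin4 was 4.77-fold lower (9.63, 8.11, 8.38 and 7.37), while Plin2 and Pparg, markers of the fat-storing state, differed by -0.14 and -0.25. Of 13 measured stellate identity genes 1 was higher (Pcdh7, 3.71-fold by its brightest probe, 0.46 by the mean of its RefSeq probes), with Lhx2 at 0.63 and Gata4 at -0.12.

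Calcification genes were lower in 4 of 11 cases and higher in 2, beside 4.28% and 3.41% over all genes. Among the 4 was the growth factor gene Ptn, given above. Normexp left 3 lower and 1 higher, and 75th percentile or median scaling 4 lower and 1 higher. The calcification inhibitor gene Mgp measured 7.36, 3.58, 7.22 and 4.59, 6.83-fold lower and low on the IL17A arrays, and alkaline phosphatase (Alpl) 6.44, 4.27, 3.20 and 4.02, 5.34-fold lower and low with either agent. Bglap, the osteocalcin gene, was 2.61-fold higher at 4.84, 5.09, 5.29 and 6.23, and normexp gave 0.68, short of the rule. Zinc genes had 2 of 24 higher, beside 3.41% over all genes. They were the importer gene Slc39a4 (4.29, 8.62, 4.48 and 7.66, 10.4-fold) and the metallothionein gene Mt2 (13.53, 14.91, 13.58 and 15.09, 2.96-fold). Mt1 differed by 0.15. Glucocorticoid-responsive genes had 4 of 14 higher, beside 3.41% over all genes, with a median of -0.014. Fkbp5 (-0.01) and Tsc22d3 (-0.33) did not pass. The 4 were Lcn2, Mt2, Errfi1 and the kinase gene Sgk1 (11.38, 12.04, 11.92 and 12.57, 2.27-fold).

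Of 19 measured genes of the skin's cornified envelope 8 were higher and 1 lower, beside 3.41% and 4.28% over all genes, with a median of 0.698. With normexp 4 of the 8 passed, and the lower one did not. The largest difference of all measured on both arrays was that of Sprr2h, a small proline-rich protein, at 3.08, 7.35, 6.37 and 9.67, 96.0-fold higher. Its probe lies at chromosome 3, 92191186 to 92191245 on mm9. Each agent alone was far above untreated and the combination was 2.32 above the next array. Late cornified envelope genes split by medium instead, with Lce1g at 6.03, 6.30, 8.47 and 8.96 (7.59-fold; 1.44 by the mean of its RefSeq probes), Lce1i at 5.32, 5.66, 7.84 and 8.23 (7.53-fold) and Lce1j at 4.16, 4.48, 6.11 and 6.53 (5.17-fold). The Sprr2 and Lce1 genes are families of near-identical copies, so a probe may bind transcripts of more than its own gene, and how much was not tested. Simple keratins and mesothelial genes were lower in 3 of 6 cases and higher in 0, with a median of -0.991. Krt19, a keratin of bile duct and mesothelium, measured 9.38, 7.99, 9.36 and 7.14 (4.70-fold lower), Krt8 was 2.90-fold lower and mesothelin (Msln) measured 14.03, 13.31, 13.40 and 12.84 (2.28-fold lower).

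Several lists had no member past the rule in either direction, namely 38 oxidative phosphorylation genes (median -0.026), 16 class I antigen presentation genes (-0.076), 23 DNA replication genes (0.14), 22 mitosis genes (0.085), 11 Notch genes (0.239) and 16 housekeeping genes (0.049). The proliferation marker Mki67 differed by 0.11 and Pcna by -0.01. The cell cycle inhibitor gene Cdkn1a was higher all the same, at 9.72, 9.91, 11.09 and 11.21 (2.80-fold), and so was the death-promoting Bcl2l11 (8.70, 10.21, 9.35 and 10.77, 4.21-fold). The 18 measured p53 targets had 2 higher and 0 lower, beside 3.41% and 4.28% over all genes. Bcl2 family genes had 1 of 13 higher and 1 lower. The lower one was Bmf, with a bound of -2.22 on the log2 scale, and normexp gave -0.41, short of the rule. Glycolysis and hypoxia genes had 2 of 31 higher, beside 3.41% over all genes. They were Vegfa and the carbonic anhydrase gene Car12 (2.39-fold, but 0.49 by the mean of its RefSeq probes). Ldha and Pgk1 differed by -0.43 and -0.10. The secretory stress list had 0 of 23 higher and 1 lower, Chac1 (2.08-fold), with the chaperone gene Hspa5 at -0.14. Of 31 antioxidant genes 3 were higher, led by the glutathione transferase gene Gstt4 (4.96, 9.44, 6.08 and 8.90, 15.3-fold), while Hmox1 was at -0.70 and Nqo1 at 0.36. Their count was 2 with 75th percentile or median scaling and 1, Gstt4, with normexp. Clock genes had 0 of 17 higher and 3 lower, Cry1 (4.56-fold, with -0.76 by its other probe), Rora and Hlf. With normexp 0 of the 3 passed.

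Other genes with the largest differences belong to none of these groups. Urah, an enzyme of urate breakdown, measured 5.41, 12.19, 5.95 and 10.80, 41.9-fold higher, and a second probe gave 4.89. The divalent metal transporter gene Slc11a1, known from macrophages, measured 4.96, 8.09, 6.67 and 8.71, 13.5-fold higher. On the lower side Klhl30, a kelch protein, measured 9.18, 5.78, 6.52 and 3.78, 42.3-fold lower, from a probe at chromosome 1, 93258755 to 93258814 on mm9. Its level was 2.0 below the next array, and each agent alone was below untreated. The water channel gene Aqp5 measured 10.41, 9.90, 7.94 and 6.94 (11.1-fold lower), Lrrc17 7.36, 5.03, 5.40 and 3.96 (10.5-fold lower) and Ranbp3l 9.75, 10.50, 5.90 and 6.60 (8.90-fold lower, low on the medium arrays only). Cep126 (19.1-fold lower) and Fam209 (19.1-fold lower) were far lower on all 3 treated arrays than on the untreated one.

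Among bounds, several genes were above background on 1 array of the 4. Olfr1423 and Ceacam3 stood at 7.81 and 6.50 on the untreated array and between 0.17 and 0.35 on the other 3 (bounds of at least 43.5-fold and 17.6-fold). Cadm3 and Lrrc18 stood at 6.70 and 5.83 on the combined array only, which gives bounds of at least 20.5-fold and 11.2-fold, but the mean of their RefSeq probes gave 1.23 and -0.09. Over all genes, 139 were at least 2-fold higher on the combined array than on each of the other 3, and 31 at least 2-fold lower. The untreated array stood apart in the same way for 170 and 46 genes, that of IL17A for 128 and 23, and that of medium for 85 and 20. Where the probe was above background on all 4 arrays and had a RefSeq accession, the combined array stood apart as highest for 11 of 12292 genes and as lowest for 22, the untreated array for 27 and 39, that of IL17A for 41 and 20 and that of medium for 21 and 13. The combined array thus had the fewest such high genes of the 4 under this filter, against 45 high and 26 low genes when the accession was not asked for. The 11 included Sprr2h, Ccbe1, the small GTPase gene Rasl12 (5.31, 6.41, 6.48 and 7.78) and the Wnt regulator gene Dact1 (4.28, 3.73, 4.39 and 5.42). The 22 included Klhl30, Ptn, the aspartoacylase gene Aspa (5.78, 4.63, 5.51 and 3.02; -1.99 by the mean of its RefSeq probes) and the tight junction gene Cgn (5.73, 4.71, 4.89 and 3.37).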

How the data were processed

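Total RNA of 4 cultures was labelled with Cy3, per the labels' protocols, and hybridised to 1-colour Agilent mouse arrays (design 014868, probe positions on mm9, Feature Extraction 12.1.1.1), per the file headers. The deposited intensity values are processed, mean and background signals per spot, the processed ones background-subtracted per the file headers. The deposited score columns are flags for spots above background, saturated or outlying. The submitters' processing notes list R 3.5.1. The authors' 2 lists of probe IDs were not used.

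Control spots (ControlType other than 0) and outlier spots (91 to 126 an array) were left out, log2 processed signals were quantile normalized over 4 arrays and spots of a probe averaged. Of 41174 probes 28696 were named through RefSeq accessions (GRCm38.p6), 5761 by current and 163 by older symbols, and 6554 by the name in the file. Each gene was represented by its NM_ or NR_ probe of highest mean, other probes only without one, giving 26683 genes. List medians cover members above background on both arrays. Genes were named from the 12 largest differences and 8 largest bounds in each direction, up to 6 members and all key members of each list, and 8 genes in each direction on which the combined array stood farthest apart, from the largest down; a few genes under this rule are not reported here. The members and the 64 lists were chosen with earlier results of these data known. Alternatives covered 75th percentile and median scaling, quantile normalization over the 2 arrays, normexp (offset 50; limma 3.58.1, R 4.3.3), filters, probe choice and 1.5-fold and 4-fold rules. The size rule was tried on simulated arrays with known changes well over 2-fold in genes of moderate to high level. Changes near 2-fold, changes in dim genes and differences between cultures were not simulated, so the rule stays untested there. Python 3.11.15, pandas 2.3.3, NumPy 2.4.6 and matplotlib 3.10.9 were used. The number of arrays limits the precision.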

Additional observations from a re-analysis of the deposited data

How the results depend on the processing

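No paired analysis was possible because each group had 1 array, and no array could be left out. The counts of 550 higher and 691 lower genes stayed within 1.5 times with 75th percentile scaling (542 and 660), median scaling (553 and 650) and quantile normalization over the 2 arrays (524 and 670). They moved to 127 and 172 with normexp, 353 and 442 with both arrays above background, 1240 and 1399 with no filter, 356 and 455 with the mean of NM_ or NR_ probes, 1495 and 1694 at 1.5-fold, and 115 and 146 at 4-fold. The 139 genes highest on the combined array were 19 with normexp, 70 on NM_ or NR_ probes only and 51 with the mean of those probes. The 31 lowest were 15 with 75th percentile scaling and 0 with normexp; no test was run, so no p-values stand behind these counts. Of 567 list medians under alternatives 6 turned sign. With no filter these were PDGF (-0.007), Wnt (0.018), imprinted genes (0.083) and stellate markers (0.041), and with the mean of NM_ or NR_ probes lipid droplet genes (0.036) and cholangiocyte markers (0.575). Of 4607 values of single genes 5 turned sign, all with that mean: Ankrd33b (-0.011), Id4 (-0.393), Lrat (-0.139), Lrrc18 (-0.091) and Stc1 (-0.673). The cause was not tested. Of 189 named genes past the rule 183 passed with 75th percentile scaling, 183 with median scaling and 108 with normexp, under which all 189 kept their sign. Differences of genes below a level of 5 are the least precise, with a technical SD of 0.411.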
